A study of Mus musculus with 2 samples.

Results

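The AP-1 and Egr immediate early genes are 10 mouse genes taken by name: Jun, Junb and Jund, Fos, Fosb, Fosl1 and Fosl2, and Egr1, Egr2 and Egr3. All 10 were found among 49943 RefSeq genes on chromosomes 1 to 19, X and Y, and each was measured over the gene with 2 kb on both sides. The group was chosen by S-phase over G1-phase values of these same libraries, since Jund had been seen as a peak higher in S phase and Egr1 as higher in S phase. For this reason the ratios below are a description and no evidence that this family differs from other genes.

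Splenic B cells lacking CD43, from mice of 4 to 8 weeks, were profiled by END-seq, which tags the ends of broken DNA, to find where replication-linked breaks form without added damage. One group was activated for 24 to 28 h with anti-CD40 at 1 µg/mL together with IL-4 at 25 ng/mL, and is labelled S phase. The other was cultured as long without these agents and labelled G1 phase and quiescent. Both titles begin with ATR+c, a term the labels do not explain, and no genotype, strain or number of animals is given in the sources used here. Each group is 1 library, so there was no test and no p-value, and cell cycle phase, activation and library cannot be told apart. The S-phase library had 21997695 reads, 20543572 of them on chromosomes 1 to 19, and the G1 library 28933109 and 26889564. Levels are given as RPM, the reads scaled to a total of 1000000 on chromosomes 1 to 19. The reads are ends of DNA, so no expression was measured and the B cell label could not be checked against expressed markers.

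Jun and Fos proteins pair through leucine zippers to form AP-1, a transcription factor that binds short DNA elements in the control regions of growth and immune genes. Egr proteins are zinc finger transcription factors that bind GC-rich elements. Both families are known as immediate early genes: mitogen and antigen receptor signals switch on their transcription within minutes, without new protein synthesis, and CD40 ligation and IL-4 are among the stimuli that drive B cells out of quiescence.

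Of the 10 genes, 7 had at least 1.5 times as many scaled break ends in the S-phase library as in the G1 library, with at least 50 reads in a library. By the same rule 13.0% of 39224 genes with at least 50 reads were higher, and 17.5% of 11946 protein-coding genes whose window is at most 30 kb. None of the 10 was lower by the same factor, against 8.85% of genes. Of the 8 genes other than Jund and Egr1, 5 were higher. The ratio was above 1 at 9 of 10 genes and at 59.5% of all genes, and its 95% interval lay above 1 at 8 of 10 and at 30.7% of all genes. The median log2 ratio over the 10 genes was 0.87, against 0.10 over the 49591 genes with reads. Intervals cover counting error only. Reads stacked at single bases, at 2.49 to 4.06 reads per covered base of these windows in S phase against 3.56 to 4.96 in G1 phase, and copies of a molecule could not be told from separate breaks.

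**Figure D1:**
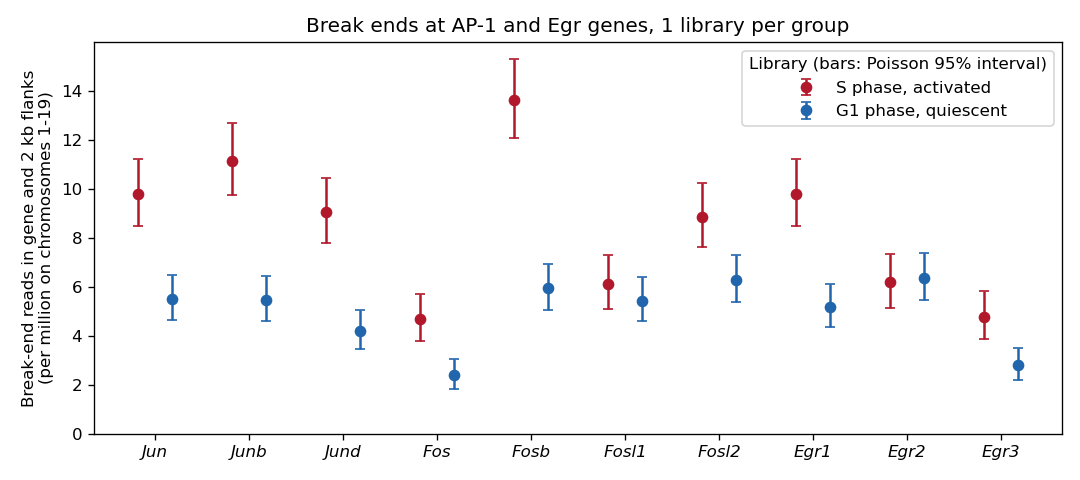
Break-end reads in each gene with its 2 kb flanks, in RPM, in the S-phase library (red, left of each pair) and the G1 library (blue, right), with Poisson 95% intervals. Fosb is highest in S phase at 13.6 RPM, and the points of Fosl1 and Egr2 lie closest to their G1 values.

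Among the Jun genes, whose products are the AP-1 subunits able to pair with themselves as well as with Fos, all 3 were higher in S phase. Jun (chromosome 4, 95049036 to 95052222, mm10) had 201 S-phase and 148 G1 reads, or 9.78 RPM (8.48 to 11.2) in S phase against 5.50 RPM (4.65 to 6.47) in G1 phase, and stood at a ratio of 1.78 (1.43 to 2.21). Junb (chromosome 8, 84976909 to 84978748) had 229 S-phase and 147 G1 reads, or 11.1 RPM (9.75 to 12.7) in S phase against 5.47 RPM (4.62 to 6.43) in G1 phase, and stood at 2.04 (1.65 to 2.53). Jund (chromosome 8, 70697739 to 70700616) had 186 S-phase and 113 G1 reads, or 9.05 RPM (7.80 to 10.5) in S phase against 4.20 RPM (3.46 to 5.05) in G1 phase, and stood at a ratio of 2.15 (1.70 to 2.75). For each of these genes the interval of the ratio lay above 1, as it did at 30.7% of all genes with at least 50 reads. Summed over the Jun genes there were 616 S-phase reads against 408 G1 reads, a ratio of 1.98 (1.74 to 2.25). The sum pools genes of 1 library per group, and its interval covers counting error only.

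At Jun the excess lay on the upstream side, in a cluster of plus-strand ends at a run of guanines. The promoter windows of Jun and Junb are shown because their peaks fall inside them. Each runs 5′ to 3′ on the gene's strand, the minus strand, from 250 bases before the annotated start to 50 after it (RefSeq, GRCm38.p6), and capitals mark bases at which at least 1 read of the named library, on either strand, began.
Jun, S phase: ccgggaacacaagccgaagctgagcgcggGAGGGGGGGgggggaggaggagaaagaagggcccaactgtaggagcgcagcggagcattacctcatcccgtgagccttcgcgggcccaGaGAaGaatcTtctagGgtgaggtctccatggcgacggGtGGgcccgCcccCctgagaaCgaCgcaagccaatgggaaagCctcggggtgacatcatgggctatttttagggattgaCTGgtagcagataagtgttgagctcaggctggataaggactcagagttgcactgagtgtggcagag
Jun, G1 phase: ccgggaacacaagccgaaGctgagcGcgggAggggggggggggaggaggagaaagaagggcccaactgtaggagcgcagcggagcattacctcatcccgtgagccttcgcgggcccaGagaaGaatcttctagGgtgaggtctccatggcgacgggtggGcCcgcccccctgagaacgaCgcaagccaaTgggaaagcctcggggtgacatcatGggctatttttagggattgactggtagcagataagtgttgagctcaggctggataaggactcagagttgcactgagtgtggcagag
Junb, S phase: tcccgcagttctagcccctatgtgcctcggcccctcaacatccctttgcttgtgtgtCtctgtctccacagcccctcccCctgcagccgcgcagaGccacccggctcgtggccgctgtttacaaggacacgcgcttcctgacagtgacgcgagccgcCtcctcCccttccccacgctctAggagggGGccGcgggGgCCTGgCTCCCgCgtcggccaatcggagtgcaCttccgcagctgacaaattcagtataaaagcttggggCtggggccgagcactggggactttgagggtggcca
Junb, G1 phase: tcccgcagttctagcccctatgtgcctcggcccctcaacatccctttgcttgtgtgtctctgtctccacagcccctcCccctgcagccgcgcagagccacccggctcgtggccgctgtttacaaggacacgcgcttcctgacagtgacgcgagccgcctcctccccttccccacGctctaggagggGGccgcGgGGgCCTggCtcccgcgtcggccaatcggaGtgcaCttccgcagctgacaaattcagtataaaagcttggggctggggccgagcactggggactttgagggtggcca

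The Jun window lies at chr4:95052173-95052472 and the Junb window at chr8:84978699-84978998. In the Jun window 26 bases carried a read start in S phase and 11 in G1 phase, with 117 S-phase and 63 G1 reads, a ratio of 2.43 (1.77 to 3.36). Its longest run of a single base is 12 guanines, at positions -219 to -208 from the start, and 1.59% of the first promoter windows of 27026 genes hold a run of guanines or cytosines as long. In S phase 53 plus-strand reads began within this run, on 7 bases, and in G1 phase none did, so the level was at least 23.1-fold higher against a floor of 3 reads in the G1 library. Over the run and the adjacent 2 bases upstream, a stretch chosen after the values were seen, there were 69 reads on 9 bases in S phase against 2 reads on 1 base in G1 phase, which gives 45.2 (12.0 to 380.3). The highest S-phase base, at -218 on the plus strand, held 20 reads. The highest G1 base of the window, at -36 on the minus strand, held 21. Without the reads in the guanine run, Jun had 148 reads in each library and a ratio of 1.31 (1.04 to 1.66), below the size used for a call, and 6 of the 10 genes were then called.

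By parts of the window, Jun had 156 S-phase reads in the 2 kb upstream against 81 G1 reads, a ratio of 2.52 (1.92 to 3.34). Over the Jun gene itself there were 30 S-phase and 31 G1 reads, a ratio of 1.27 (0.741 to 2.16). In the 2 kb downstream there were 15 S-phase and 36 G1 reads, a ratio of 0.545 (0.277 to 1.02). The upstream side overlaps Junos, a long noncoding RNA gene that begins at 95052317, so these reads belong to both windows. The S-phase cluster was one-sided: the 200 bp bin from 95052436 to 95052635 held 68 plus-strand reads and none on the minus strand in S phase, against 7 and none in G1 phase, and stood at 12.7 (5.85 to 32.8). The next bin toward the gene held 24 plus-strand and 25 minus-strand reads in S phase and 16 and 40 in G1, a ratio of 1.15 (0.764 to 1.71). With the minus strand alone, the Jun window was lower in S phase, at 48 S-phase against 80 G1 reads, or 0.786 times the G1 level (0.538 to 1.14), whereas on the plus strand alone it stood at 2.94.

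At Junb a shared break site at the start of the gene was present in both libraries. The 200 bp bin from 84978709 to 84978908, which contains the annotated start at 84978748, held 114 S-phase reads against 81 G1 reads, a ratio of 1.84 (1.37 to 2.48), below the ratio of 2 set for bins. The strands differed: 28 plus-strand and 86 minus-strand reads in S phase, against 39 and 42 in G1 phase. The highest S-phase base, at -46 on the minus strand, held 15 reads, and the highest G1 base, at -55 on the plus strand, held 21. In the Junb promoter 22 bases carried a read start in S phase and 13 in G1 phase. Downstream of Junb the difference was larger but rested on few reads, with 41 in the S-phase library against 2 in the G1 library, a ratio of 26.8 (6.97 to 229.0).

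At Jund, often described as the AP-1 subunit of resting cells, the difference lay within the gene. Over the gene there were 127 S-phase reads against 23 G1 reads, a ratio of 7.23 (4.61 to 11.8), on 40 covered bases in S phase against 7 in G1 phase, strands apart. The flanks together went the other way, with 59 S-phase and 90 G1 reads, a ratio of 0.858 (0.607 to 1.20). The bin from 70698739 to 70698938, centred about 1.1 kb after the annotated start, held 42 S-phase reads against 8 G1 reads, a ratio of 6.87 (3.19 to 16.9), and 37 of the 42 and all 8 were on the minus strand. Plus-strand reads over the gene were 49 on 18 bases in S phase and none in G1 phase. No single stack carried the gene: the highest base of the window held 9 reads in each library, and without the called bin the window stood at 1.80 (1.39 to 2.33). The Jund window also reaches into Iqcn, which begins at 70701321.

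**Figure D2:**
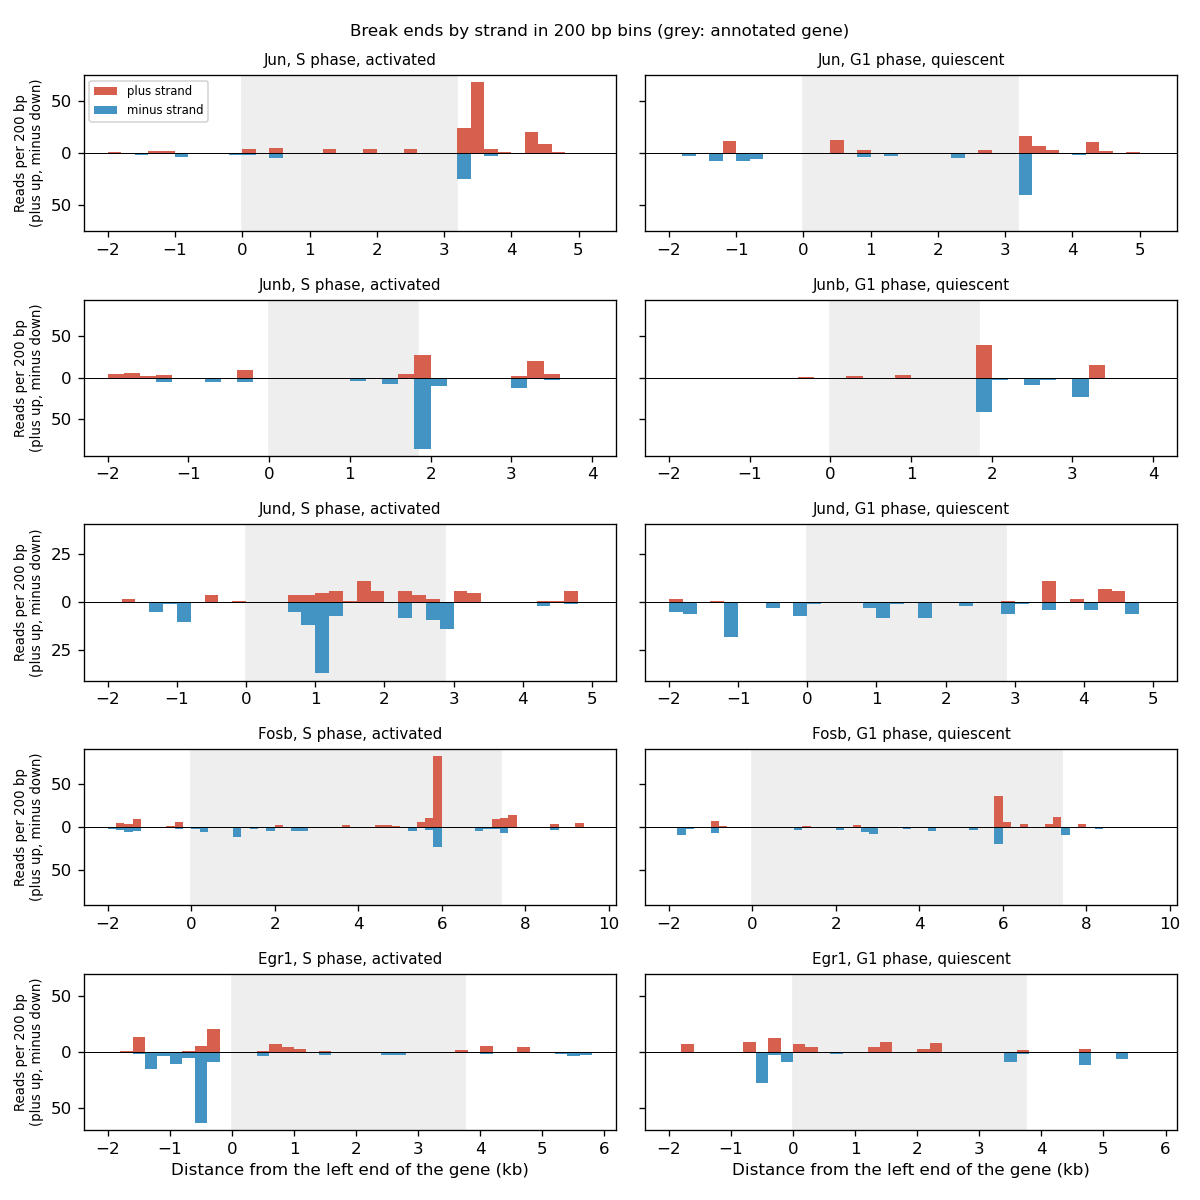
Reads per 200 bp bin along Jun, Junb, Jund, Fosb and Egr1, by distance from the left end of the gene in kb, in the S-phase library (left) and the G1 library (right), plus-strand reads upward and minus-strand reads downward, with the annotated gene in grey. The tallest bins of Jun, Junb and Egr1 stand at or outside a gene edge, and those of Jund and Fosb within the gene.

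Of the Fos genes, which encode AP-1 subunits that need a partner such as Jun, 2 of 4 were called higher in S phase. Fosb (chromosome 7, 19302696 to 19310118) had 280 S-phase and 160 G1 reads, or 13.6 RPM (12.1 to 15.3) in S phase against 5.95 RPM (5.06 to 6.95) in G1 phase, and stood at a ratio of 2.29 (1.88 to 2.80), the highest of the 10 genes and above 98.0% of all genes with at least 50 reads. Fos (chromosome 12, 85473890 to 85477274) had 96 S-phase and 64 G1 reads, or 4.67 RPM (3.79 to 5.71) in S phase against 2.38 RPM (1.83 to 3.04) in G1 phase, and stood at a ratio of 1.96 (1.42 to 2.74). The interval of the ratio lay above 1 at both genes, as it did at 30.7% of all genes with at least 50 reads.

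Fosl2, which encodes Fra-2, and Fosl1, which encodes Fra-1, were not called. Fosl2 (chromosome 5, 32136472 to 32157840) had 182 S-phase and 169 G1 reads, 8.86 RPM (7.62 to 10.2) in S phase against 6.28 RPM (5.37 to 7.31) in G1 phase, and stood at a ratio of 1.41 (1.14 to 1.75), just short of the call. Fosl1 (chromosome 19, 5447698 to 5455938) had 126 S-phase and 146 G1 reads, 6.13 RPM (5.11 to 7.30) in S phase against 5.43 RPM (4.58 to 6.39) in G1 phase, and stood at a ratio of 1.13 (0.883 to 1.44), and the libraries' intervals overlapped. Part of the Fosl1 window is shared with Ccdc85b (5453163 to 5457563).

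Within Fosb, 1 site led in both libraries. The bin from 19308496 to 19308695, centred 1.45 kb after the first annotated start, held 106 S-phase reads against 57 G1 reads, a ratio of 2.43 (1.75 to 3.42). It had 83 plus-strand and 23 minus-strand reads in S phase, and 37 and 20 in G1 phase. The highest plus-strand base was the same in each library, 1372 bases after the start, with 17 S-phase and 12 G1 reads. The difference was not confined to this site: without the bin the Fosb window stood at 2.21 (1.72 to 2.85), and the upstream, gene and downstream parts stood at 3.40 (1.83 to 6.65), 2.19 (1.74 to 2.77) and 2.11 (1.27 to 3.59).

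Fos had no bin of at least 20 reads in either library. Its reads were spread over 33 bases in S phase and 18 in G1 phase, none of them the same. The 2 kb upstream of Fos held 40 S-phase and 24 G1 reads, a ratio of 2.18 (1.28 to 3.78), the gene 38 S-phase and 20 G1 reads, a ratio of 2.49 (1.41 to 4.51), and the downstream part 18 S-phase and 20 G1 reads, a ratio of 1.18 (0.588 to 2.35). At Fosl1 the only tested bin was lower in S phase: from 5449898 to 5450097 the S-phase library had no reads and the G1 library 34, so the S-phase level was at most 0.115 of the G1 level, with 3 reads as the S-phase floor. Fosl2 had no bin of 20 reads, but 27 S-phase reads in its 2 kb upstream against 7 G1 reads, a ratio of 5.05 (2.14 to 13.7). The gene stood at 1.29 (1.03 to 1.62), and the 2 kb downstream had no S-phase and 5 G1 reads.

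Of the Egr genes, Egr1 and Egr3 were called higher in S phase and Egr2, known for its part in nerve myelination and lymphocyte tolerance, was not. Egr1 (chromosome 18, 34861207 to 34864956) had 201 S-phase and 139 G1 reads, 9.78 RPM (8.48 to 11.2) in S phase against 5.17 RPM (4.35 to 6.10) in G1 phase, and stood at a ratio of 1.89 (1.52 to 2.37). Egr3 (chromosome 14, 70077317 to 70082613) had 98 S-phase and 75 G1 reads, 4.77 RPM (3.87 to 5.81) in S phase against 2.79 RPM (2.19 to 3.50) in G1 phase, and stood at a ratio of 1.71 (1.3 to 2.3), the lowest of the called genes. Egr2 (chromosome 10, 67534469 to 67542188) had 127 S-phase and 171 G1 reads, 6.18 RPM (5.15 to 7.36) in S phase against 6.36 RPM (5.44 to 7.39) in G1 phase, and stood at a ratio of 0.972 (0.767 to 1.23), and was the only gene of the 10 below 1.

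The reads that set Egr1 and Egr3 apart lay outside the annotated genes. In the 2 kb left of Egr1 there were 149 S-phase reads against 68 G1 reads, a ratio of 2.87 (2.14 to 3.88). Over Egr1 itself there were 31 S-phase and 50 G1 reads, a ratio of 0.812 (0.501 to 1.30), so the gene without flanks pointed the other way. Both tested bins lay on this left side. The one from 34860607 to 34860806 had 68 S-phase and 28 G1 reads, a ratio of 3.18 (2.02 to 5.13), and the minus strand held 63 of the S-phase and 28 of the G1 reads. The next, from 34860807 to 34861006, had 29 S-phase and 15 G1 reads, a ratio of 2.53 (1.31 to 5.08), and the plus strand held 20 of the S-phase and 12 of the G1 reads. The highest minus-strand base of Egr1, at -443 from the left end of the gene, was the same in both libraries, with 14 S-phase and 13 G1 reads. Without these bins the Egr1 window stood at 1.42 (1.06 to 1.89).

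Egr3 had 39 S-phase and 13 G1 reads in the left flank, a ratio of 3.93 (2.05 to 8.02), 30 S-phase and 42 G1 reads over the gene, a ratio of 0.935 (0.565 to 1.53), and 29 S-phase and 20 G1 reads in the right flank, a ratio of 1.90 (1.04 to 3.54). At Egr2 the gene held 91 S-phase and 129 G1 reads, a ratio of 0.923 (0.698 to 1.22), and part of its window is shared with the noncoding gene Gm32255. The strand of Egr1, Egr3 and Fosl1 was not used here, so their flanks are given as left and right.

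**Figure D3:**
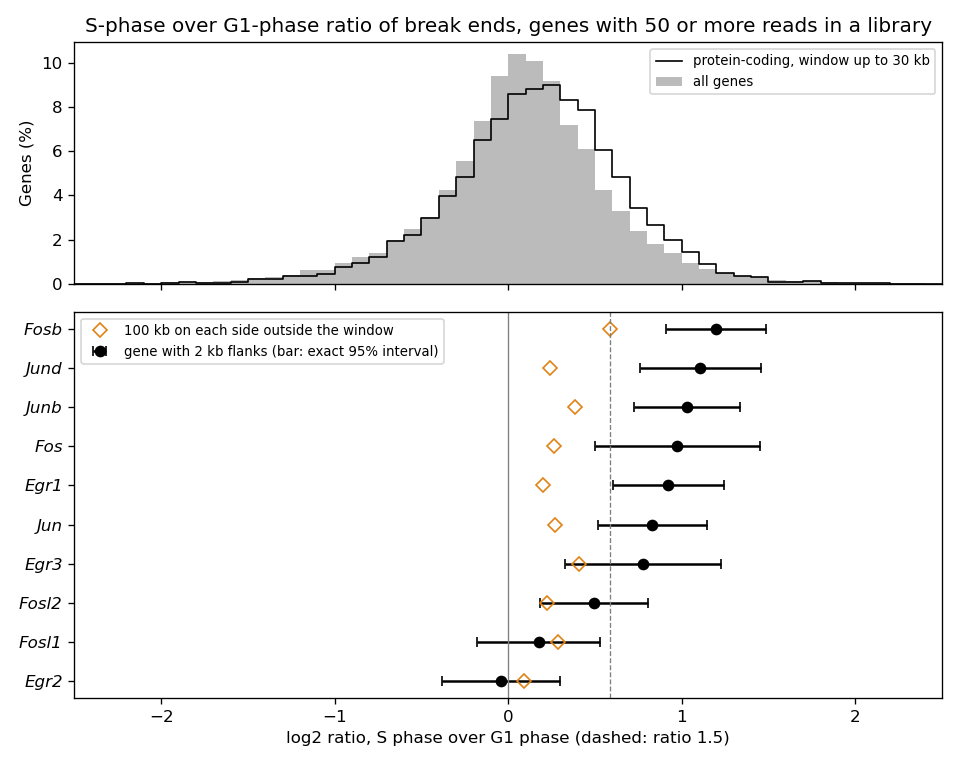
Upper part, share of genes (in %) by log2 ratio of break ends, S phase over G1 phase, for all genes with at least 50 reads (grey) and for protein-coding genes with a window of at most 30 kb (line). Lower part, the ratio of each gene with its 2 kb flanks (black, exact 95% interval) and of 100 kb on each side outside it (open diamonds), with the ratio of 1.5 dashed; all 10 diamonds lie above 0, and 7 black points lie right of the dashed line.

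Summed over the 10 genes, the difference was larger in the flanks than in the genes. Junb, Jund and Fos went the other way, at 1.97, 0.858 and 1.73 in flanks and 3.05, 7.23 and 2.49 in genes. The sums pool genes and stacked reads of 1 library per group, so their intervals cover counting error only. The flanks had 939 S-phase reads against 657 G1 reads, a ratio of 1.87 (1.69 to 2.07), and the genes without flanks had 787 S-phase and 675 G1 reads, a ratio of 1.53 (1.38 to 1.69). Of 8 genes with at least 50 flank reads in a library, 7 were higher by at least 1.5, against 25.4% of all genes tested in this way. The exception was Jund. Fos, Fosb and Egr3 reached 50 flank reads only in the S-phase library, where they were high, so the minimum itself bears on this count. With 50 flank reads in each library 5 genes were left and 4 were higher (Jun, Junb, Fosl1 and Egr1), against 33.0% of all genes so tested. Without flanks 6 genes had enough reads and 2, Jund and Fosb, were higher, against 11.0% of all genes. Jund reached 50 reads over the gene only in the S-phase library, where it was high, with 127 reads against 23 in G1 phase. Egr1, not higher without flanks, reached 50 only in the G1 library, with 31 S-phase and 50 G1 reads. The median ratio of all genes was 0.982 for flanks and 1.06 without flanks. Around the first annotated start, with 1 kb on each side, 6 genes had at least 20 reads in a library and 5 of them (Jun, Junb, Jund, Fos and Fosb) were higher by at least 1.5, against 39.6% of such windows. Here Jund reached 20 reads only in the S-phase library, where it was high, with 40 reads against 14 in G1 phase. Egr2, not higher, reached 20 only in the G1 library, with 12 S-phase and 25 G1 reads.

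The regions around the genes were also higher in S phase. In 100 kb on each side outside the window the ratio ran from 1.07 at Egr2 and 1.15 at Egr1 to 1.33 at Egr3 and 1.5 at Fosb. Divided by this regional ratio, 5 genes stayed at or above 1.5: Junb at 1.56, Jund at 1.83, Fos at 1.63, Fosb at 1.53 and Egr1 at 1.64, while Jun stood at 1.47 and Egr3 at 1.29. Divided in the same way, 9.11% of all genes with at least 50 reads were at or above 1.5. The median ratio over all these genes was 1.06 before this division and 0.999 after it. The share of all genes whose surroundings stand above 1 is not given here. More copies of a replicated region and more breaks per copy cannot be told apart in these libraries. Within each library the windows of Jun, Junb, Jund and Egr1 held more reads per kb than their surroundings, by 3.16, 4.24, 2.95 and 2.33 times in S phase and 2.14, 2.71, 1.61 and 1.42 times in G1 phase. Fosl2 stood at 0.951 in S phase and 0.788 in G1 phase, below its surroundings in both.

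In bins of 200 bp, 11 of 530 bins in the windows had at least 20 reads in a library. Of these, 6 had an S-phase level at least 2 times the G1 level (2 at Jun, 1 at Jund, 1 at Fosb and 2 at Egr1), 1 at Fosl1 was at most 0.5 times as high, and 4 were neither. Over the 29146 such bins in the windows of all genes, 22.2% were higher by this rule and 46.4% lower. A fixed minimum of reads admits more bins from the G1 library, which is the deeper. Of the 6 higher bins, both of Jun, that of Jund and the second of Egr1 reached 20 reads only in the S-phase library, where they were high. With 20 reads in each library 4 bins were left and 2 were higher (Fosb and the first of Egr1), against 20.7% of all such bins. Of 9 bins with at least 20 S-phase reads, 5 had at least 80% of them on 1 strand, against 34.5% of such bins in all windows.

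The 1 kb with most scaled reads of both libraries together was set for each gene without regard to direction. This leading 1 kb was at least 1.5 times higher in S phase at the same 7 genes, against 34.7% of 36850 genes, with at least 20 reads in a library. Egr3 reached 20 reads only in the S-phase library, with 22 against 16 in G1 phase. Its ratio of 1.80 had an interval that holds 1 (0.903 to 3.67). Fosl2, not higher, reached 20 only in the G1 library, with 18 S-phase and 20 G1 reads. Of the window's S-phase reads the leading 1 kb held 62.2% at Jun, 61.1% at Junb, 56.7% at Egr1, 46.4% at Fosb and 44.6% at Jund. Of the G1 reads it held 45.9% at Jun, 57.8% at Junb, 43.9% at Egr1, 41.3% at Fosb and 17.7% at Jund, so Jund differed most between the libraries. At Jund it had 83 S-phase and 20 G1 reads, a ratio of 5.43 (3.30 to 9.35). At Egr2 it contained 4 of the annotated starts and held 39 reads in each library, a ratio of 1.31 (0.818 to 2.09).

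Reads on the plus strand run rightward from a break end and those on the minus strand leftward. A broken site with both ends recovered thus has minus-strand reads at its left and plus-strand reads at its right. With at least 10 reads on each strand of the leading 1 kb, 6 of 7 genes had this order in S phase (Fos did not) and 5 of 6 in G1 phase (Fosl1 did not). Over all genes it was found at 68.2% in S phase and 61.3% in G1 phase. The distance between the median plus-strand and minus-strand read was 60.0 bases at Egr1 in S phase and 58.0 in G1 phase. At Jun it was 156 bases in S phase against 74.5 in G1 phase, and at Junb 10.5 in S phase against 4.0 in G1 phase. It was 264 at Jund in S phase, 162 in S phase and 405 in G1 phase at Egr2, and 62 and 6.0 at Fosb. Over all genes the median distance was 48.5 in S phase and 38 in G1 phase. The order compares medians over 1 kb, so it need not come from 1 broken site. At Jun the S-phase plus-strand median lay in the one-sided cluster at the guanine run. Over the whole windows the strands were uneven in S phase at Jun, with 76.1% of reads on the plus strand (69.6 to 81.8) against 45.9% (37.7 to 54.3) in G1 phase. At Egr1 the plus strand held 33.3% of S-phase reads (26.9 to 40.3) against 48.9% of G1 reads (40.4 to 57.5). Other windows were more uneven in G1 phase. At Egr3 the plus strand held 63.3% of S-phase reads (52.9 to 72.8) against 82.7% of G1 reads (72.2 to 90.4), and at Jund 40.3% of S-phase reads (33.2 to 47.7) against 26.5% of G1 reads (18.7 to 35.7).

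**Figure D4:**
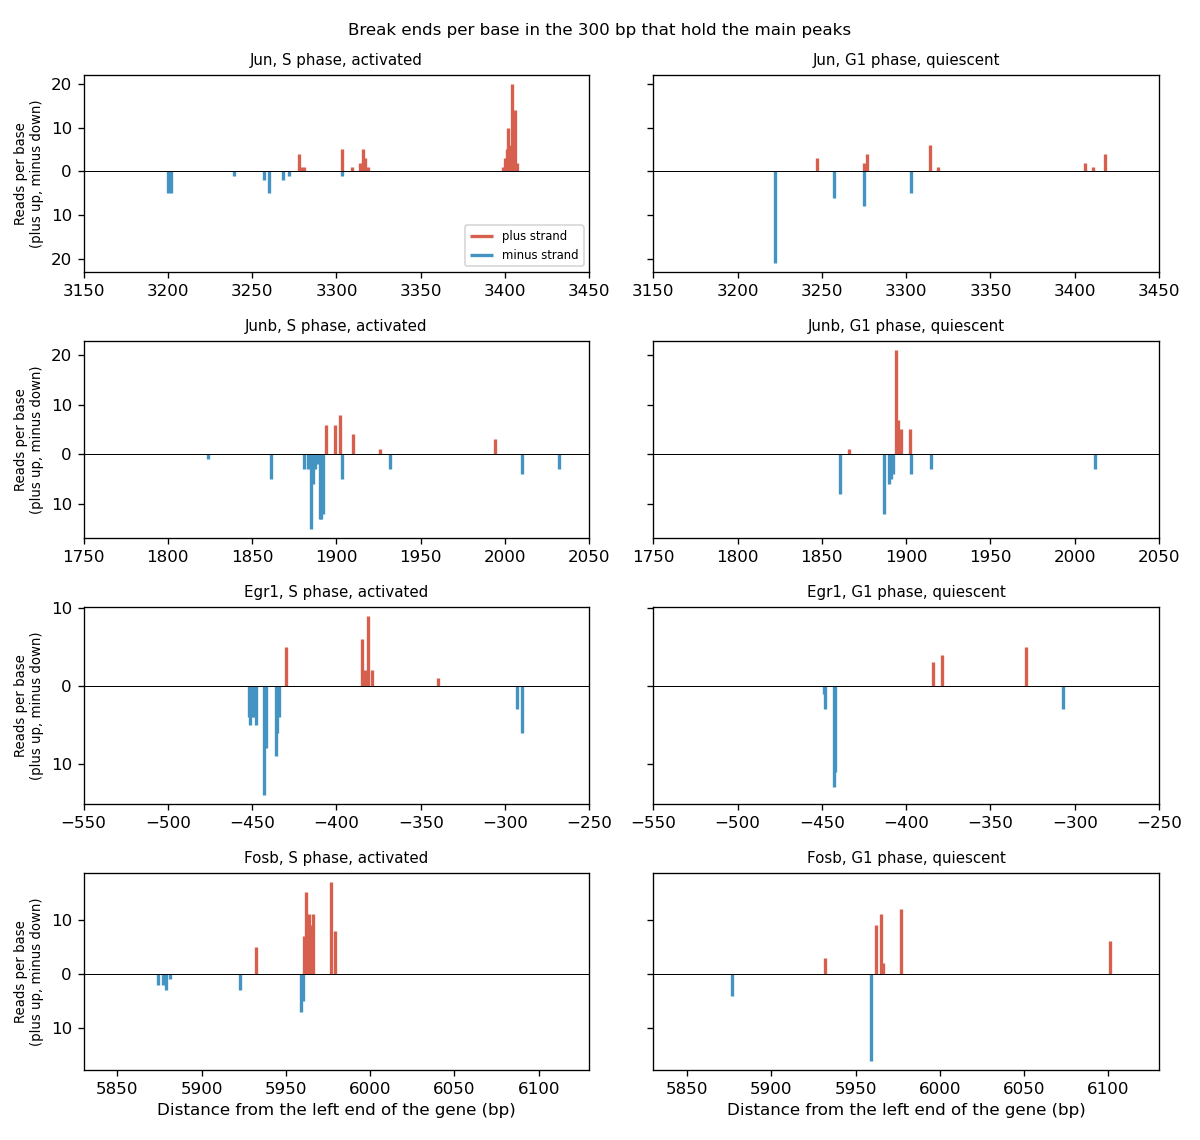
Reads per base around the main peaks of Jun, Junb, Egr1 and Fosb, by distance from the left end of the gene in bp, in the S-phase library (left) and the G1 library (right), plus-strand reads upward and minus-strand reads downward. The Jun cluster near 3400 bp reaches 20 reads in S phase, while Junb, Egr1 and Fosb have reads at the same site in both libraries.

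The libraries used the same bases at some of these sites. Of 528 strand-specific bases covered in S phase and 307 in G1 phase over the 10 windows, 33 were shared, 6.25% of the S-phase bases and 10.7% of the G1 bases. Over chromosomes 1 to 19 the shares were 1.83% of the S-phase and 1.93% of the G1 bases. Those shares span all sequence and are not matched for read density. The share in gene windows of like density is not given here. The shared bases were at Junb (9), Fosb (8), Jun (7), Egr1 (5), Fosl1 (2), Jund (1) and Egr2 (1), and there were none at Fos, Fosl2 and Egr3. With each covered base counted once, 7 genes were still at or above 1.5, the same ones, with Jund highest at 2.03 and Jun at 1.72, against 12.0% of all genes. The intervals were then wider. That of Fos held 1, at 1.74 (0.953 to 3.29). Those of the other called genes stayed above 1, with lower bounds from 1.05 at Egr3 and 1.09 at Egr1 to 1.29 at Fosb.

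Other genes of the pathway were counted by the same rule. Of 12 AP-1 partners, 2 were higher by at least 1.5 and none was lower, against 13.0% and 8.85% of all genes with at least 50 reads. The count of 2 is near the share of all genes. Maf, which encodes a basic leucine zipper factor, had 106 S-phase and 49 G1 reads, a ratio of 2.83 (2.00 to 4.06), and the small Maf gene Maff 209 S-phase and 119 G1 reads, a ratio of 2.30 (1.83 to 2.90). Batf, a B cell AP-1 partner needed for class switching, stood at 1.30 (1.07 to 1.58), while the stress-induced Atf3 stood at 0.947 (0.748 to 1.19) and Mafg at 0.979 (0.752 to 1.27), both with an interval that holds 1. The median ratio of this list was 1.24, against 1.06 for all genes with 50 reads.

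Of 12 kinases, factors of the serum response and Egr regulators, 4 were higher and none lower, against 13.0% and 8.85% of all genes. The median ratio of this list was 1.29. Srf, the serum response factor that drives Fos and Egr1 transcription, had 410 S-phase and 235 G1 reads, a ratio of 2.28 (1.94 to 2.69). Nab2, a corepressor of Egr proteins, stood at 1.6 (1.19 to 2.15), and the kinase gene Mapk3 at 1.53 (1.16 to 2.02). The lowest were Egr4 with 29 S-phase and 54 G1 reads, a ratio of 0.703 (0.432 to 1.12), Nab1 at 1.05 (0.928 to 1.19) and Elk3 at 1.1 (0.981 to 1.26).

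Of 16 other immediate early genes, 14 had at least 50 reads, of which 5 were higher and none lower, against 13.0% and 8.85% of all genes. The median ratio of this list was 1.38. Arc, known for synaptic plasticity, had 88 S-phase and 29 G1 reads, a ratio of 3.97 (2.58 to 6.27), Ier5 335 S-phase and 210 G1 reads, a ratio of 2.09 (1.75 to 2.49), and Klf10 493 S-phase and 393 G1 reads, a ratio of 1.64 (1.44 to 1.88). Ier2 was lowest at 0.793 (0.596 to 1.05), followed by the phosphatase gene Dusp1 at 1.06 (0.835 to 1.33) and Klf4 at 1.1 (0.793 to 1.52). Over these lists together 11 of 38 genes were higher, and 7 of the 10 AP-1 and Egr genes, against 13.0% of all genes and 17.5% of the protein-coding genes with a window of at most 30 kb.

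**Figure D5:**
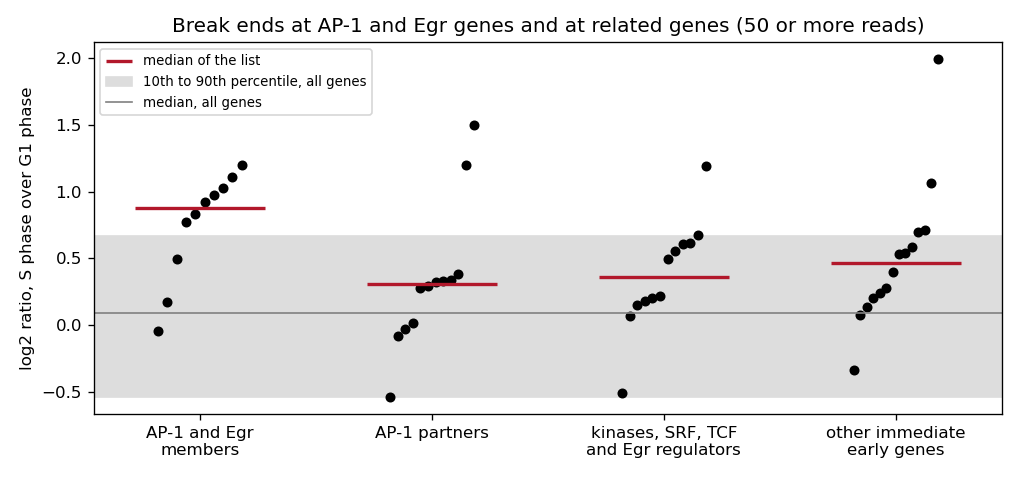
The log2 ratio of break ends, S phase over G1 phase, of each gene with at least 50 reads in a library, for the AP-1 and Egr genes and for each list of related genes, with the list's median (red), the median of all genes (grey line) and their 10th to 90th percentile (grey band). Most related genes lie inside the band, and 7 of the 10 AP-1 and Egr genes lie above it.

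Promoter windows of RefSeq were matched for 7 of the 10 genes (Jun, Junb, Jund, Fos, Fosb, Fosl2 and Egr2), and short motifs were searched on both strands. Only exact matches to each motif were counted, so close variants of a site were missed. The AP-1 site TGACTCA was in none of the 7 first windows and in 5.17% of all first windows, and the cyclic AMP response element TGACGTCA was in none and in 1.85%. An Egr site, GCGGGGGCG or GCGTGGGCG, was in those of Fosl2 and Fosb and in 3.47% of all. The CArG box of the serum response factor was in no first window of these genes and in 1.59% of all, but in 4 further windows of Egr2, which overlap in part. GGGG, which the Egr site GCGGGGGCG also contains, was in all 7 and in 85.9% of all. The GC content was 72.0% at Egr2, 68.3% at Fosb, 65.3% at Junb, 64.7% at Fosl2, 60.0% at Jun, 58.7% at Fos and 46.7% at Jund, against a median of 52.7% over all first windows. The Jund window held 1 S-phase and 7 G1 reads, and its peak lay outside it.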

How the data were processed

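Break ends of 1 S-phase and 1 G1-phase library were analysed. The authors deposited 1 bedGraph track per library and strand, whose values are whole numbers and were read as raw counts of read ends per base. Bowtie 1.1.2, SAMtools 1.11, bedtools and mm10 are named in the submitters' processing notes. Their settings, and the treatment of duplicates and of reads matching several places, stay unstated in the labels.

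Counts were summed per strand (Python 3.11.15; pandas 2.3.3; numpy 2.4.6) over RefSeq genes (GRCm38.p6, the assembly of mm10) with 2 kb flanks, in 200 bp bins from the left end, and scaled to chromosomes 1 to 19. A gene was called from a ratio of 1.5 upward if either library held 50 or more reads, and a bin from 2 upward at 20 or more. Ratios carry conditional exact 95% Poisson intervals, levels Poisson and shares Clopper-Pearson intervals (scipy 1.17.1). A log2 ratio used a pseudocount of 1. Without molecular identifiers, intervals and floors cover counting error only. A count of 0 allows 0.146 RPM in S phase and 0.112 in G1 phase, the level of 3 reads. The calling step was tested on simulated data. Plots used matplotlib 3.10.9.

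The members, lists and rules were chosen with earlier results of these data known. The text names all 10 members, up to 3 highest and 3 lowest genes of each list, and genes overlapping a window. A gene of these lists is not reported here. The stretch around the Jun guanine run and the GC contents were chosen after their values were seen. Scaling, stacks, flanks, strands, thresholds and bin sizes were varied.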

Additional observations from a re-analysis of the deposited data

How the results depend on the processing

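No paired analysis was possible because each group is 1 library. The count of 7 genes at or above 1.5 stayed within 1.5 times of 7 under 14 of 17 other settings, but was not always 7 in these. It was 5 of 10 with regional scaling (9.11% of all genes) and 5 of 6 around the starts (39.6% of such windows). With at least 100 reads it was 5 of 8. For the minimum of 100 reads and for single strands the share of all genes is not given here. Those counts therefore cannot be set against other genes. On the plus strand alone it was 6, with Fosl2 called and Egr1 and Egr3 not. In the other 3 settings the count moved further. It was 2 of 6 tested genes without flanks (11.0% of all genes) and 4 of 8 on the minus strand alone. With a ratio of at least 2 it was 3, which 3.54% of all genes reach. The median log2 ratio of 0.87 was 0.35 without flanks and at least 0.53 under the other settings. Of the called genes, Egr1 and Egr3 reversed without flanks, at 0.812 and 0.935, and Jun on the minus strand alone, at 0.786. Of the genes not called, Fosl1 at 1.13 crossed 1 with regional scaling (0.925), without flanks (0.896) and in the leading 1 kb (0.770). Egr2 at 0.972 crossed 1 with each base counted once (1.15), 5 kb flanks (1.03), the plus strand alone (1.12) and the leading 1 kb (1.31). Scaling to the median gene lowers every log2 ratio by 0.09 and kept all 7 calls, against 9.80% of all genes called.

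The 6 of 11 tested bins called higher became 12 of 17 with bins of 500 bp (17.6% over all gene windows), 28 of 51 with a minimum of 10 reads (24.6%) and 3 of 5 with a minimum of 50 reads (28.8%). With 20 reads in each library they became 2 of 4 (20.7%). They became 3 of 11 at a ratio of at least 3 and 3 of 6 on the minus strand alone. For these 2 settings the share over all gene windows is not given here. With 40 reads in both libraries together, 5 of 7 were called (28.7%). With each base counted once a single bin reached 20 and 0 were called, since a bin of 200 bp then rarely reaches the minimum. Jund, Junb and Fosb stayed at or above 1.5 in every setting run, with lowest ratios of 1.75, 1.56 and 1.53. The leading 1 kb, the window around starts, the minimum in each library or in both together, and the settings without the guanine run or the called bins were chosen after seeing the data. The called bins were chosen as higher in S phase, and each stood above the ratio of its window. Leaving them out therefore lowered each ratio. Bins hold few reads: 20 to 114 in S phase at those tested, except at Fosl1 and 1 of Junb.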
